A study of Mus musculus with 19 samples.

Results

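The clustered protocadherins are cell adhesion genes that lie side by side in the alpha, beta and gamma clusters, and they were followed here through RNA-seq and ribosome profiling of mouse hippocampal slices. Members were all genes of both count tables whose symbol begins with Pcdha, Pcdhb, Pcdhga, Pcdhgb or Pcdhgc followed by an isoform number or c, which gave 61 of the 20436 genes listed. The alpha cluster held 17 of them, the beta cluster 22 and the gamma cluster 22. Single members were chosen by symbol alone, but the family as a whole was selected on its zeros and its spread between libraries, which had been seen in these counts, so those values are given as a description, with no test.

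Slices came from wild-type male mice aged 28 to 42 days and were incubated for 5 min with DHPG, an agonist of group I metabotropic glutamate receptors, at 100 µM, or with artificial cerebrospinal fluid alone (basal). All slices then received cycloheximide at 100 µg/ml, which halts ribosomes on the mRNA. According to the study's methods, slices of several mice were pooled for a replicate and area CA3 was left in place. RNA-seq covered 4 basal and 5 DHPG libraries, and ribosome-protected fragments (RPFs) were sequenced in 5 basal and 5 DHPG libraries. The DHPG RNA library of replicate 5 had no basal partner.

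Clustered protocadherins are single-pass membrane proteins with extracellular cadherin repeats, and they bind the same isoform on another cell. Each neuron expresses its own small set of isoforms, chosen through promoters in front of each variable exon, and this lets a neuron tell its own dendrites and axons from those of others. Most isoforms are chosen at random (alternate isoforms), whereas the C-type isoforms at the end of the alpha and gamma clusters are expressed more uniformly. In the alpha and gamma clusters the variable exon, which encodes the extracellular and transmembrane parts, is spliced to constant exons that encode a shared cytoplasmic end, and beta isoforms are encoded by a single exon and have no such end.

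All 61 members lie on chromosome 18 (mm10). The alpha cluster runs from 36930285 to 37188897, the beta cluster from 37264998 to 37521419 and the gamma cluster from 37661775 to 37841873. In the reference annotation the alpha isoforms share 3 constant coding exons of 456 bases in all, and the gamma isoforms share 3 of 372 bases. Only 5 members are of the C type: Pcdhac1 and Pcdhac2 in the alpha cluster, and Pcdhgc3, Pcdhgc4 and Pcdhgc5 in the gamma cluster.

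Another 3 members, Pcdha4-g, Pcdha6-g and Pcdha7-g, are joined forms, in which the variable exon of an alpha isoform is spliced across the beta cluster to the gamma constant exons. They start at 36952648, 36967631 and 36973802 and all end at 37841873, the end of the gamma cluster. Of the 2757 coding bases of Pcdha4-g, 2385 (86.5%) are also coding bases of Pcdha4 and the other 372 are those of the gamma constant exons. Only 0.80% of the 30-base stretches in the coding sequence of Pcdha4, and 0.90% of those in Pcdha4-g, occur in no other member. The median share was 66.2% for alternate alpha isoforms, 86.1% for alpha C-type isoforms, 81.6% for beta isoforms, 82.2% for alternate gamma isoforms and 88.4% for gamma C-type isoforms. A fragment from the variable exon therefore matches both the alpha isoform and its joined form, and the deposited counts hold the split made by the authors' counting. No coding sequence of Pcdha6-g or Pcdha7-g was in the annotation used here.

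Total counts were 4870813 to 7793244 in the RNA libraries and 5692064 to 22092434 in the RPF libraries. The 61 members together took 0.124% to 0.171% of the RNA counts (7795 to 13080 counts per library) and 0.176% to 0.228% of the RPF counts (12392 to 48721). Markers of neurons (Snap25, Rbfox3, Camk2a and Slc17a7) summed to 7097 to 8072 CPM (counts per 1000000 library counts, scaled by edgeR's TMM normalization) in basal RPF libraries, against 1.19 to 2.48 CPM for choroid plexus markers and 0.955 to 1.40 CPM for serotonin neuron markers. Other cells were present too: astrocyte markers (Gfap, Aqp4, Aldh1l1 and Slc1a2) summed to 3749 to 4414 CPM in basal RPF libraries. Thalamic markers, named below, summed to 106 to 134 CPM there. In bulk tissue, fewer cells of a type and less RNA per cell cannot be told apart.

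Of the 5 C-type isoforms, 4 were among the 5 members with the most footprints per kb, and the alternate isoforms formed a broad lower range. Footprints per kb of counted coding sequence in basal slices were highest for Pcdhgc5 at 178 ± 17.4 CPM per kb (SD, n = 5), followed by Pcdhgc3 at 65.3 ± 7.23. Pcdhga11 (33.5 ± 1.97), Pcdhac2 (27.7 ± 2.80), Pcdhgc4 (23.8 ± 2.93) and Pcdhga12 (22.4 ± 2.05) came next, and from Pcdhac2 down neighbours lay within the sum of their SDs of each other. Pcdhac1, the other alpha C-type isoform, was low at 3.22 ± 0.57 CPM per kb and had rank 50 of the 59 members with a coding length. Among alternate isoforms, the median footprint level was 4.18 CPM per kb in the alpha cluster (12 members), 6.70 in the beta cluster (22) and 13.6 in the gamma cluster (19). The lowest alternate isoforms in their clusters were Pcdha8 (0.222 CPM per kb), Pcdhb1 (0.118) and Pcdhgb8 (0.923).

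**Figure D1:**
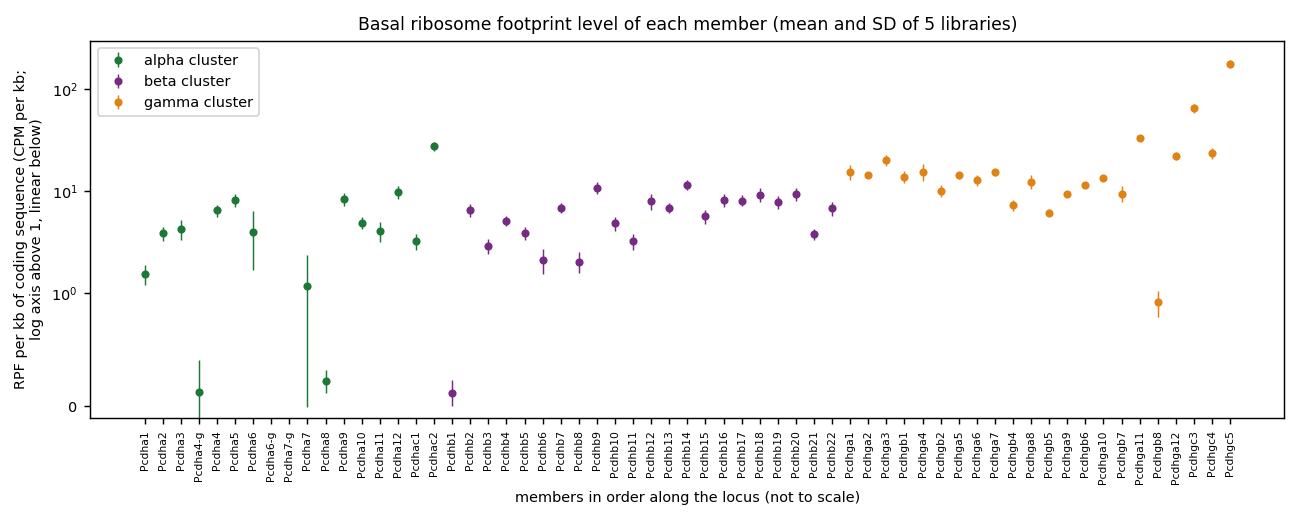
Ribosome footprints of each member in basal slices, as CPM per kb of counted coding sequence (vertical axis, logarithmic above 1 and linear below), in order along the locus. Points are means and bars SDs of 5 libraries, and the points of Pcdhgc5 (178) and Pcdhgc3 (65.3) stand above the rest, while Pcdha6-g and Pcdha7-g have no coding length and no point.

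Per kb of transcript the RNA levels were led by the same C-type isoforms in another order, with Pcdhgc3 at 53.3 ± 12.4 CPM per kb (SD, n = 4), Pcdhgc5 at 47.4 ± 11.3 and Pcdhac2 at 28.3 ± 3.58. Pcdhgc3 and Pcdhgc5 lay within their spread of each other in RNA. The ratio of RPF to RNA CPM in the 4 basal replicates with both libraries was highest among the C-type isoforms for Pcdhgc5, at a log2 ratio of 1.17 ± 0.21 (SD, n = 4), and lowest for Pcdhac1, at -1.16 ± 0.19. Pcdhac2 stood at -0.99 ± 0.07, Pcdhgc3 at -0.44 ± 0.17 and Pcdhgc4 at 0.30 ± 0.24. Over all 12691 genes tested in both assays the median log2 ratio was -0.16, with quartiles of -0.88 and 0.53. RNA was counted on whole transcripts and RPF on coding sequence, so this ratio also carries the length of each transcript's untranslated part.

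C-type isoforms held nearly the same share of their cluster with and without DHPG. In the alpha cluster, Pcdhac1 and Pcdhac2 together took 58.2% ± 2.99 of the RNA counts in basal slices (SD, n = 4) and 57.7% ± 2.59 after DHPG (n = 5). Their share of the alpha RPF counts was lower, at 35.3% ± 1.66 in basal and 35.3% ± 1.19 in DHPG libraries (n = 5 each). In the gamma cluster the 3 C-type isoforms took 52.0% ± 2.01 of the RNA counts in basal slices and 52.4% ± 1.84 after DHPG, and 51.0% ± 0.643 and 51.0% ± 0.970 of the RPF counts. In all 4 cases the shares of the groups overlapped.

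Apart from Pcdhb1, the zeros fell on the joined forms and their alpha partners. In RNA, 2 of 61 members had a count of 0 in at least 1 library (Pcdha6 and Pcdhb1), and in RPF 4 had one (Pcdha4-g, Pcdha6-g, Pcdha7 and Pcdhb1). Of all genes listed, 31.1% had such a 0 in RNA and 30.9% in RPF. Pcdhb1 was near 0 throughout, with at most 3 counts in any RNA library and 5 in any RPF library. The others reached 20 or more counts in another library. Such a jump from 0 to at least 20 was seen in RNA for 1 of the 59 members with 20 counts in some library, against 3 of 12585 genes (0.0238%), and in RPF for 3 of 59 members against 18 of 13201 genes (0.136%).

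Pcdha6-g, the joined form of alpha isoform 6, had RPF counts of 0, 38, 20, 85 and 67 in basal libraries 1 to 5 and of 0, 0, 0, 0 and 53 in DHPG libraries 1 to 5. Pcdha6, its partner, had RPF counts of 97, 253, 349, 8 and 106 in basal and of 74, 278, 318, 126 and 115 in DHPG libraries. In basal library 4 the joined form was at its highest count and Pcdha6 at its lowest, and the joined form was at 0 in DHPG libraries 1 to 4 while Pcdha6 was not. The sum of the 2 entries was 97, 291, 369, 93 and 173 in basal and 74, 278, 318, 126 and 168 in DHPG libraries, and the groups overlapped.

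Pcdha7 had RPF counts of 1, 56, 167, 0 and 64 in basal and of 25, 91, 77, 22 and 43 in DHPG libraries. Its joined form Pcdha7-g had 37, 69, 16, 58 and 44 in basal and 38, 44, 75, 56 and 61 in DHPG libraries. The libraries with the fewest Pcdha7 counts, basal 1 and 4, had most of the shared counts in Pcdha7-g (97.4% and 100% of the sum), and basal library 3 had 8.74% there. The sum ran from 38 to 183 counts and in CPM from 5.90 to 11.2.

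Pcdha4 carried nearly all RPF counts of its pair. Pcdha4-g had 38 RPF counts in basal library 3, 35 in DHPG library 5 and 0 in the other 8 libraries, whereas Pcdha4 had 101 to 378 in every library. A count of 0 allows up to 3 counts by counting error alone.

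In RNA the joined forms took the larger part of each pair in most libraries, and for isoform 7 they did so in RPF too. Pcdha4 had RNA counts of 14, 59, 53 and 32 in basal and of 118, 24, 73, 58 and 42 in DHPG libraries, and Pcdha4-g had 138, 50, 62 and 87 in basal and 43, 59, 48, 74 and 57 in DHPG libraries. Basal library 1 had the fewest Pcdha4 and the most Pcdha4-g counts, and DHPG library 1 had the most Pcdha4 and the fewest Pcdha4-g counts. Pcdha6 had RNA counts of 52, 0, 34 and 11 in basal and of 19, 9, 42, 12 and 18 in DHPG libraries, against 30, 59, 38 and 57, and 71, 43, 32, 71 and 47, for Pcdha6-g. The share of a pair's counts given to the joined form ran from 26.7% to 90.8% for isoform 4, from 36.6% to 100% for isoform 6 and from 40.5% to 87.1% for isoform 7 in RNA, and from 0% to 17.1%, 0% to 91.4% and 8.74% to 100% in RPF.

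**Figure D2:**
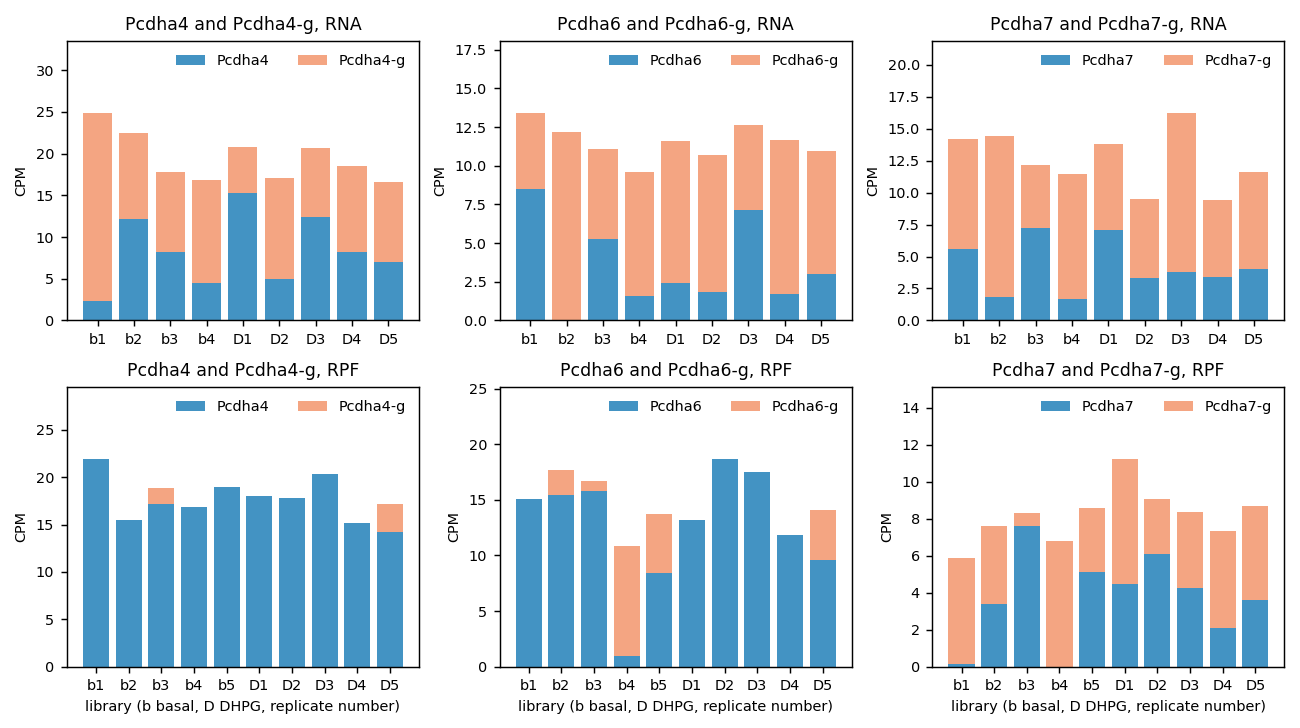
CPM of Pcdha4, Pcdha6 and Pcdha7 (blue) stacked with those of their joined forms (orange), 1 bar per library, in RNA (top) and RPF (bottom), with b for basal, D for DHPG and the replicate number. The height of the bars varies less than the split within them, except for isoform 4 in RPF. There the joined form takes at most 17.1% of a bar. For isoform 6 in RPF the joined form ranges from 0% to 91.4% of the bar, while the bars run from 10.9 to 18.7 CPM.

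Over all libraries of an assay the sum of each pair varied less than either entry, but for isoform 4 in RPF only a little less than Pcdha4. In RPF the coefficient of variation (CV) of CPM over 10 libraries was 146% for Pcdha6-g and 41.5% for Pcdha6, but 17.7% for their sum. It was 65.9% for Pcdha7, 40.8% for Pcdha7-g and 17.6% for the sum, and for isoform 4 it was 13.4% for Pcdha4, 219% for Pcdha4-g and 11.5% for the sum. In RNA, over 9 libraries, the CV was 81.4% for Pcdha6, 29.1% for Pcdha6-g and 9.70% for their sum, which is below the 11.9% that counting error alone gives at that level. Pcdha4 had 50.8%, Pcdha4-g 42.3% and their sum 14.6%, and Pcdha7 had 48.3%, Pcdha7-g 33.4% and their sum 18.4%. Among other alternate isoforms the median CV was 15.6% in RNA and 14.6% in RPF for the beta cluster, and 17.0% and 11.9% for the gamma cluster. In the alpha cluster the 9 alternate isoforms other than Pcdha4, Pcdha6 and Pcdha7 had medians of 18.3% in RNA and 18.7% in RPF, and highest values of 64.8% and 35.0%.

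Measured against genes of like level, these entries were among the most variable of the transcriptome. The ratio of a gene's own dispersion to the trend at its level was taken from edgeR with replicate number as a block. Because edgeR shrinks a gene's dispersion toward this trend, the ratio understates departures from it. In RPF the ratio was 25.6 for Pcdha6-g, the highest of 13208 genes tested. Pcdha7 (13.7), Pcdha6 (10.8) and Pcdha7-g (9.71) had ranks 2, 3 and 4, and Pcdha4 (2.19) had rank 119. In RNA, Pcdha4 (9.20) had rank 2 of 12935 genes, Pcdha6 (6.31) rank 3, Pcdha7-g (4.72) rank 5, Pcdha4-g (4.72) rank 6, Pcdha7 (2.80) rank 27 and Pcdha6-g (1.78) rank 243. A ratio above 2 was found for 7 of 59 members tested in RNA, the other two being Pcdhb3 (2.06) and Pcdhb15 (2.03), against 0.997% of all genes, and for 5 of 58 in RPF, against 1.39%.

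When each joined form was summed with its partner, a step chosen after the values had been seen, the ratios fell to 1.13, 0.93 and 1.38 in RNA and to 1.18, 0.71 and 1.17 in RPF for isoforms 4, 6 and 7. The 53 other members tested had a median ratio of 0.957 in RNA (0.643 to 2.06) and of 0.935 in RPF (0.661 to 1.86). Over all genes the median was 0.944 in both assays. Splicing and the assignment of shared reads cannot be told apart in these counts.

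**Figure D3:**
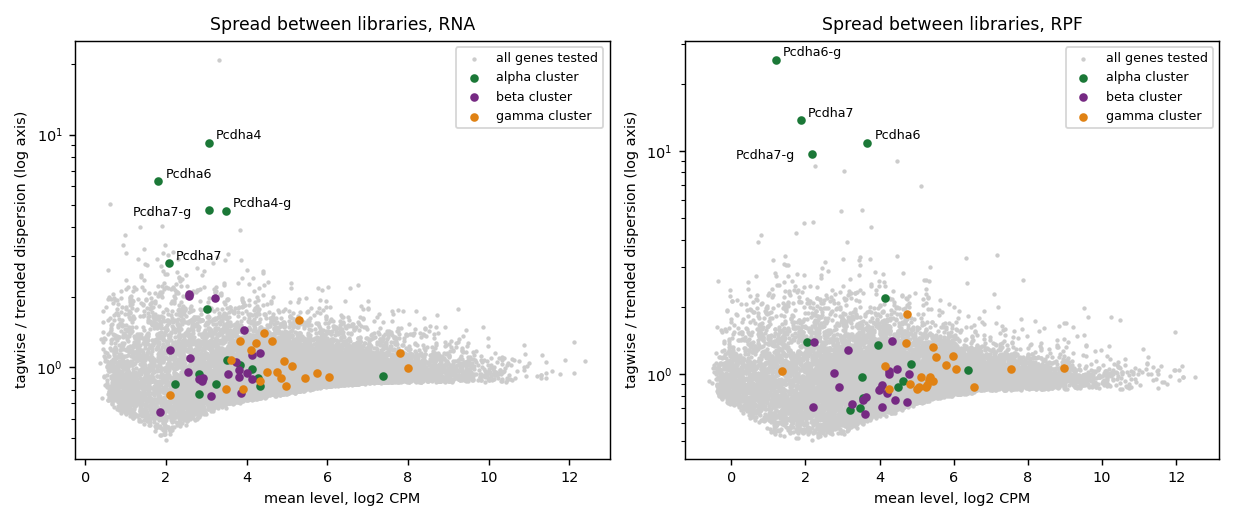
Ratio of a gene's own dispersion to the trend at its level (vertical log axis) against its mean level in log2 CPM, for all genes tested (grey) and the members by cluster, in RNA (left) and RPF (right). Pcdha6-g (25.6), Pcdha7 (13.7), Pcdha6 (10.8) and Pcdha7-g (9.71) stand at the top in RPF and Pcdha4 (9.20) and Pcdha6 (6.31) near the top in RNA, while the highest beta member is Pcdhb3 (2.06) in RNA.

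The change with DHPG was tested within replicate numbers by edgeR's quasi-likelihood F test, with Benjamini-Hochberg adjustment over all genes of an assay. With this block the unpaired DHPG RNA library of replicate 5 adds nothing to the fitted RNA change, which rests on 4 pairs. In RNA 0 of 59 members tested passed an adjusted p of 0.01, against 0.00773% of all genes tested. At an unadjusted p under 0.05 there were 4 members, against 8.02% of all genes, with 2 higher (5.2% of all genes) and 2 lower (2.81%). In RPF 1 of 58 members tested passed an adjusted p of 0.05, against 0.22% of all genes in either direction and 0.0379% lower. This was Pcdha6-g, which was lower. Its call rests on zeros of the kind the family was selected on. At an unadjusted p under 0.05 there were 8 members, against 10.8% of all genes, with 7 higher (6.55% of all genes) and 1 lower (4.21%). For translation efficiency, the difference between the RPF and the RNA change in 1 model over all 19 libraries, edgeR's quasi-likelihood test called 0 of 58 members at an adjusted p of 0.05 and 5 at an unadjusted p under 0.05, against 0.0% and 6.69% of all genes. DESeq2 with the same block called 0 members in RNA and 0 in RPF, against 0 of 12935 and 28 of 13208 genes. It gave no adjusted p for Pcdha6-g in RPF.

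The RPF log2 fold change of Pcdha6-g was -2.06 (SE 0.39, adjusted p = 0.0057 by edgeR's quasi-likelihood test), lower in 4 of 5 pairs and equal at 0 in the other. With counts of 0 in 4 DHPG libraries, its size depends on the prior count of the fit. The family was selected with its zeros in view, so this p-value is no independent test. Without replicate 2 the adjusted p by edgeR was 0.080, without replicate 4 it was 0.14 at a log2 fold change of -1.20, and without replicate 5 the gene was not tested. The call was also lost without the replicate block (unadjusted p = 0.067 by edgeR). Pcdha6, its partner, had a log2 fold change of 0.35 (SE 0.13, adjusted p = 0.32 by edgeR's quasi-likelihood test), higher in 4 of 5 pairs, and one of 0.15 without replicate 4. The summed counts of Pcdha6 and Pcdha6-g had a log2 fold change of 0.04 (SE 0.07).

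Other members had smaller differences in RPF. Pcdhga4, an alternate gamma isoform, had 46.3, 46.2, 49.7, 28.2 and 42.3 CPM in basal and 53.1, 56.4, 52.8, 39.2 and 44.8 CPM in DHPG libraries, and was higher in 5 of 5 pairs although the groups overlapped. Its log2 fold change was 0.20 (SE 0.05, adjusted p = 0.060 by edgeR's quasi-likelihood test). Pcdha10, an alternate alpha isoform, had 16.0, 15.3, 13.3, 11.2 and 12.8 CPM in basal and 21.9, 21.7, 14.9, 14.5 and 12.6 CPM in DHPG libraries, with a log2 fold change of 0.30 (SE 0.08, adjusted p = 0.084 by edgeR's quasi-likelihood test). It was higher in 4 of 5 pairs, and of the DHPG libraries 1 and 2 were above all basal libraries and the other 3 were not. Without replicate 5 edgeR gave adjusted p-values of 0.036 for Pcdhga4 and 0.024 for Pcdha10, and without replicate 3 one of 0.026 for Pcdhga4. Leaving out replicate 1, 2 or 4 gave edgeR adjusted p-values of 0.16, 0.42 and 0.20 for Pcdhga4 and of 0.33, 0.59 and 0.15 for Pcdha10, and neither passed without the block. Pcdhga4 was named after its values were seen.

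In RNA the largest fitted differences among members with an unadjusted p under 0.05 were in Pcdha4, Pcdha4-g and Pcdha1. Pcdha4 had a log2 fold change of 0.70 (SE 0.28, adjusted p = 0.56) and Pcdha4-g one of -0.63 (SE 0.21, adjusted p = 0.54), both by edgeR's quasi-likelihood test. Their sum had -0.07 (SE 0.12). Without replicate 2 both passed the RNA threshold, among 22 of 13033 genes in all. Their log2 fold changes were then 1.26 (adjusted p = 3e-05) and -0.87 (adjusted p = 0.0039) by edgeR. Without replicate 1 they were 0.13 and -0.098 (adjusted p = 0.98 for both by edgeR). Pcdha1, the first alternate alpha isoform, had 8.17, 5.77, 5.40 and 3.25 CPM in basal and 4.52, 4.53, 4.61, 2.67 and 3.19 CPM in DHPG libraries. It was lower in 4 of 4 pairs with overlapping groups, at a log2 fold change of -0.47 (SE 0.20, adjusted p = 0.58 by edgeR's quasi-likelihood test), which was -0.29 (adjusted p = 0.96 by edgeR) without replicate 1.

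None of the C-type isoforms passed a threshold. Pcdhgc3, a C-type isoform of the gamma cluster, had 169, 198, 201, 155 and 172 RPF CPM in basal and 202, 202, 207, 170.4 and 192 in DHPG libraries, higher in 5 of 5 pairs with overlapping groups. Its RPF log2 fold change was 0.11 (SE 0.03, adjusted p = 0.16 by edgeR's quasi-likelihood test). Pcdhgc5 had 510.2, 528, 529, 413 and 485 RPF CPM in basal and 535, 583, 505, 434 and 486 in DHPG libraries, with a log2 fold change of 0.04 (SE 0.03). Library 4 was the lowest of its group in both treatments for both of these isoforms. Pcdhac2 (0.07, SE 0.04), Pcdhac1 (0.08, SE 0.09) and Pcdhgc4 (0.06, SE 0.04) had RPF log2 fold changes of the same order. In RNA the log2 fold changes of the 5 C-type isoforms ran from -0.16 (Pcdhac1, SE 0.11) to 0.12 (Pcdhgc3, SE 0.07), and that of Pcdhac2 was within 0.01 of 0.

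None of the most abundant alternate isoforms passed a threshold either. By RNA CPM, Pcdha12 and Pcdha9 led the alpha cluster, Pcdhb9 and Pcdhb17 the beta cluster, and Pcdhga11 and Pcdhga3 the gamma cluster, with Pcdhb14 and Pcdhga12 in the place of Pcdhb17 and Pcdhga3 in RPF. Pcdhga11 had 87.9, 97.3, 98.1, 86.7 and 89.3 RPF CPM in basal and 97.6, 99.4, 104, 93.1 and 89.8 in DHPG libraries, higher in 5 of 5 pairs with overlapping groups. Its RNA was 72.2, 65.7, 67.0 and 46.7 CPM in basal and 80.4, 71.9, 72.1, 60.6 and 56.0 CPM in DHPG libraries, higher in 4 of 4 pairs, with a log2 fold change of 0.19 (SE 0.08, adjusted p = 0.57 by edgeR's quasi-likelihood test). The basal and DHPG groups of each of the 61 members overlapped in both assays. This is a description only, as overlap was not counted over all genes.

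**Figure D4:**
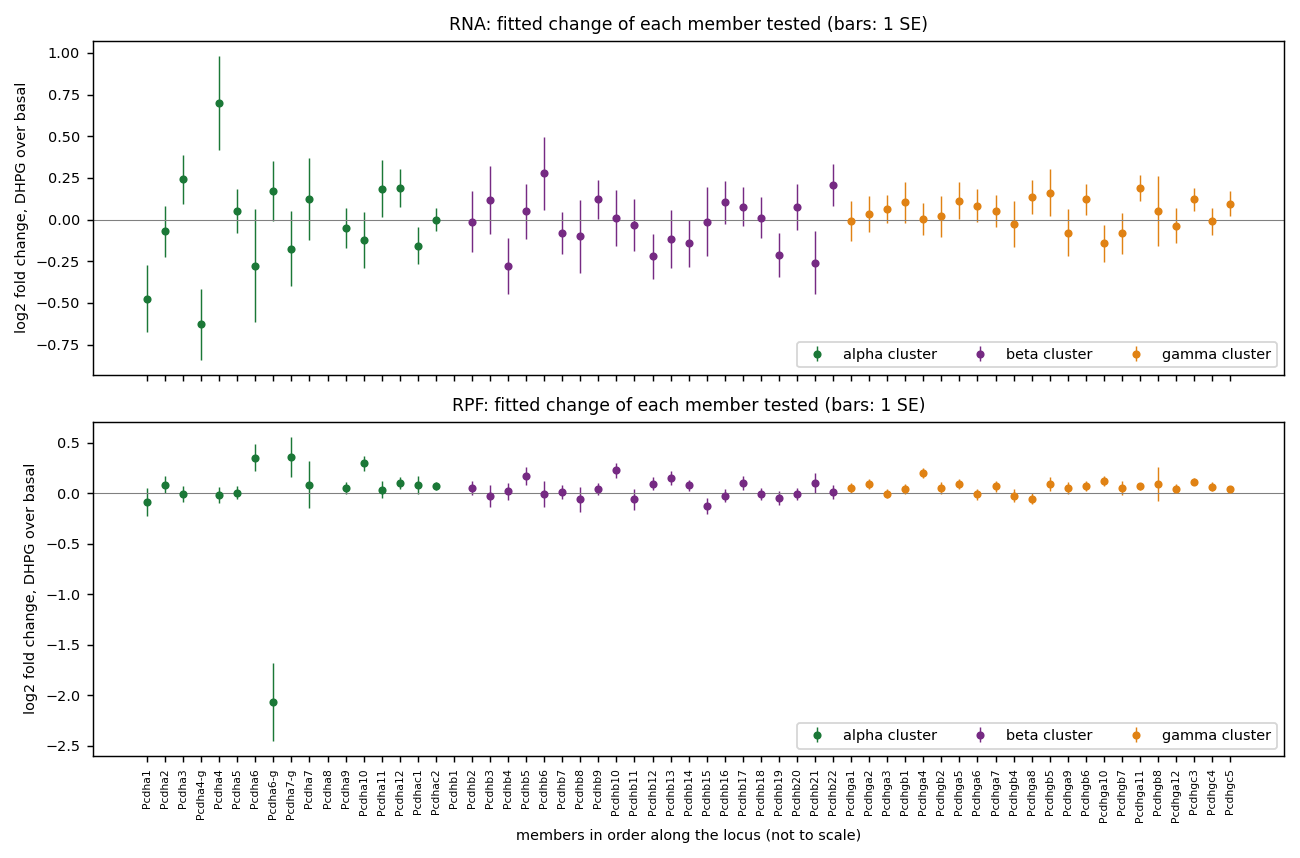
Fitted log2 fold change of each member tested, DHPG over basal, in RNA (top) and RPF (bottom), in order along the locus, with bars of 1 SE. Pcdha6-g lies at -2.06 in RPF, Pcdha4 and Pcdha4-g lie apart in opposite directions in RNA (0.70 and -0.63), and the beta and gamma members lie within 0.28 of 0 in both assays.

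Summed over a cluster, the mean log2 differences were at most 0.08 in size and the groups overlapped. The alpha sum in RPF was 281, 279, 281, 216 and 235 CPM in basal and 288, 307, 286, 231 and 243 CPM in DHPG libraries, and DHPG was higher in 5 of 5 pairs with overlapping groups. The mean log2 difference over pairs was 0.07 ± 0.05 (SD, n = 5). For the beta sum, 332, 345, 344, 255 and 289.5 CPM in basal and 346, 356, 342, 283 and 288 CPM in DHPG libraries gave 0.05 ± 0.06, higher in 3 of 5 pairs. The gamma sum went from 1463, 1540.5, 1587, 1238 and 1402 CPM to 1572, 1664, 1569.9, 1330.3 and 1427 CPM, a difference of 0.07 ± 0.06 that was higher in 4 of 5 pairs. Replicate 4 had the lowest sum of its group in all 3 clusters and both treatments.

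In RNA the log2 difference was -0.01 ± 0.12 for the alpha sum (higher in 2 of 4 pairs), -0.02 ± 0.14 for beta (1 of 4) and 0.08 ± 0.16 for gamma (2 of 4; SD, n = 4 for each). The alpha RNA sum had 345, 347, 332 and 269.7 CPM in basal and 328, 314, 353, 289 and 319 CPM in DHPG libraries. The gamma RNA sum had 1004, 1114, 1213 and 727 CPM in basal and 1113, 1085, 1151, 874 and 862 CPM in DHPG libraries. All groups overlapped, and the alpha sum of alternate isoforms alone gave 0.07 in place of -0.01. That sum leaves out the joined forms but keeps Pcdha4, Pcdha6 and Pcdha7, so it depends on how shared reads were split.

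**Figure D5:**
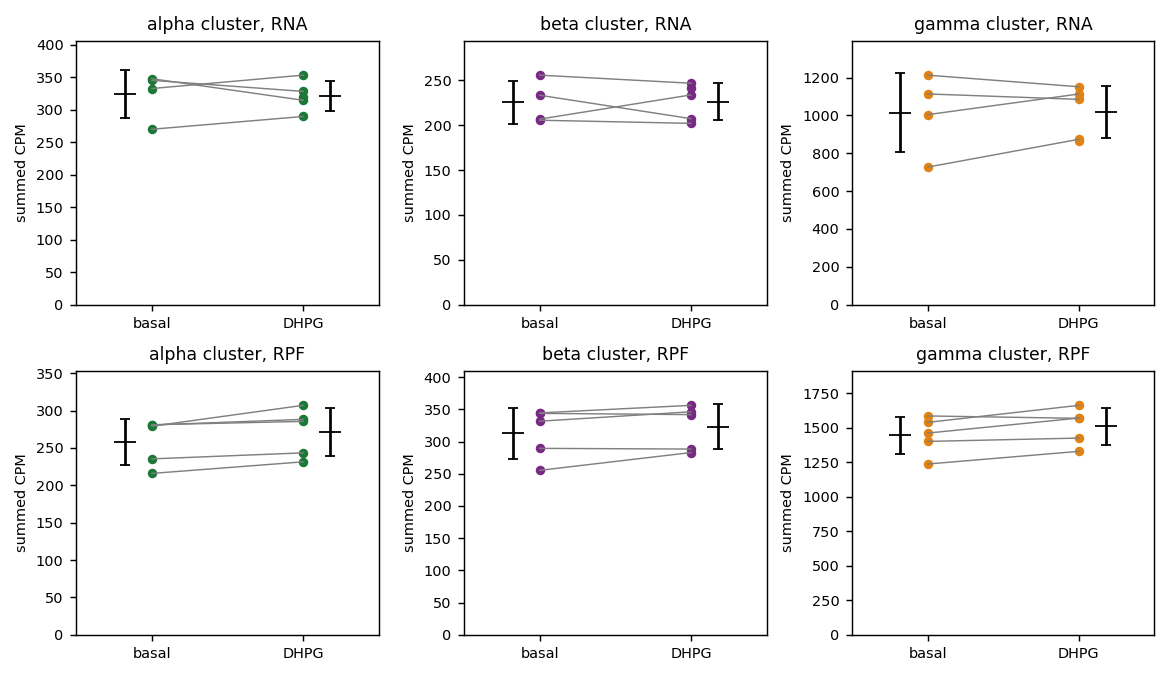
Summed CPM of each cluster per library (points), with the libraries of a replicate joined by a line, and the mean and SD of each group beside them, in RNA (top) and RPF (bottom). Groups overlap in every panel, and the lines of the RPF panels lie close to level, with mean log2 differences of 0.07, 0.05 and 0.07.

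By members, 41 of the 58 tested in RPF had a fitted fold change above 0, against 51.4% of all genes tested, and 33 of 59 in RNA, against 52.1%. In RPF these were 11 of 15 alpha, 12 of 21 beta and 18 of 22 gamma members, and the median log2 fold change over the 58 was 0.05 against 0.0031 over all genes. Members of 1 library share its RNA and are not replicates. In single pairs, 34, 42, 31, 44 and 29 of the 58 members were higher in DHPG in RPF replicates 1 to 5, and 36, 17, 29 and 43 of the 59 in RNA replicates 1 to 4. Of all genes tested, 48.6% to 53.8% were higher in single RPF pairs and 49.9% to 52.8% in RNA pairs. The direction of the members in RNA turned between replicates 2 and 4.

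No gene of 2 lists of related genes passed a threshold, against 0.00773% of all genes tested in RNA and 0.22% in RPF. Among 14 regulators of the locus, which include Ctcf (a DNA-binding insulator protein), cohesin subunits such as Rad21 and Stag2, and chromatin silencers such as Setdb1 and Smchd1, 12 were tested in each assay and 0 passed. In RNA 8 of the 12 were above 0 and in RPF 1 of 12, against 52.1% and 51.4% of all genes tested. The medians were 0.03 and -0.06. By edgeR's test 1 and 2 of them had an unadjusted p under 0.05, against 8.02% and 10.8% of all genes. Stag2 had the lowest of these p in RPF at 92.0 ± 8.42 CPM in basal and 86.1 ± 7.89 in DHPG libraries, with a log2 fold change of -0.09 (SE 0.04, adjusted p = 0.36 by edgeR's quasi-likelihood test). The other list held 17 genes for partners of protocadherins, such as Ptk2b and Fyn kinases, the WAVE complex genes and the protease gene Adam10. All 17 were tested in each assay and 0 passed. Of these, 8 were above 0 in RNA and 10 in RPF, against the same 52.1% and 51.4% of all genes.

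Thalamic marker genes were listed with earlier calls of these data known, so the number that passed is a description and no test. All 6 (Prkcd, Tcf7l2, Shox2, Zic1, Slc17a6 and Tnnt1) were higher and passed the RPF threshold, against 0.22% of all genes tested. Prkcd of the 5 tested passed in RNA, against 0.00773% of all genes tested. Their summed RPF level ran from 106 to 134 CPM in basal and from 113 to 178 CPM in DHPG libraries, and no marker was at 0 in any library. Of the myelin genes Mbp and Mog, neither passed a threshold. Their RNA log2 fold changes were 0.18 (SE 0.07, adjusted p = 0.56) and 0.15 (SE 0.07, adjusted p = 0.60) by edgeR's quasi-likelihood test. Their RPF log2 fold changes were -0.02 (SE 0.04, adjusted p = 0.90) and 0.11 (SE 0.04, adjusted p = 0.22) by the same test of edgeR. None of the neuron, interneuron, astrocyte, microglia, endothelium, choroid plexus or serotonin neuron markers passed. Whether these cells carry part of the protocadherin differences was not tested.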

How the data were processed

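RNA-seq and RPF libraries of 19 samples were mapped from the labels to 4 groups. The authors deposited RSEM expected counts per gene, rounded to whole numbers and not normalized, with RPFs on RefSeq mm10 coding sequence without the first and last 30 bases and RNA on whole transcripts. Per the study's methods reads were uniquely mapped and duplicates removed by molecular identifier. Columns of replicates 6 to 8 (12 columns) match no sample and were not used.

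Members were matched to RefSeq (61 of 61) and their coding sequence was taken from GENCODE for mm10 (59). The share of stretches found in no other member used 30 bases for RPF. The family, whose symbol rule fixes the members, and the lists were chosen with earlier results of these data known. Named members were all C-type and joined forms, the 2 most abundant others per cluster, the 5 with the largest dispersion ratio, those with 0 and at least 20 counts, the 3 largest folds at an unadjusted p under 0.05, and all that passed.

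R 4.3.3 was used with edgeR 4.0.16 (TMM, filterByExpr, quasi-likelihood test, Benjamini-Hochberg adjustment), DESeq2 1.42.0, limma 3.58.1 and sva 3.50.0. Pcdha8 and Pcdhb1, and Pcdha4-g in RPF, did not pass the filter. Replicate number was a block: deviations from group means of same-numbered libraries correlated at 0.31 to 0.74 in RNA and 0.26 to 0.52 in RPF. Sums over members got no p. The study calls the replicates biological, each a pool of mice, and the labels name no animals, so p-values measure the spread between these samples. Intervals and floors cover counting error only. In simulated data edgeR recovered 66.7% of 198 changed genes in RNA (12847 genes) and 89.4% of 199 in RPF (13145). It made 3 false calls in RNA and 9 in RPF. Recovery at fold changes as small as those of most members was not tested. Alternatives were DESeq2's size factors, other filters, no block, DESeq2, ComBat, other thresholds, sums over clusters, sums without joined and C-type forms, and each replicate left out. One marker gene of a cell type list, and the sums that include it, are not reported here.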

Additional observations from a re-analysis of the deposited data

Results flagged for a closer look

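A single library stood apart in 9 of the 108 groups of 4 or 5 libraries examined. By chance the screen would flag about 5.40. The family was selected on its zeros and spread, so 5.40 is no reference for these groups. Pcdha4-g in RPF stood at 1.73 CPM in basal library 3 and at 2.93 CPM in DHPG library 5, with all others at 0, and Pcdha6-g in RPF stood at 4.44 CPM in DHPG library 5, with the other 4 at 0. In RNA, DHPG library 3 was highest for Pcdha6 (7.16 CPM, others 1.69 to 3.03) and for Pcdha7-g (12.5 CPM, others 6.04 to 7.57), and DHPG library 1 for Pcdha7 (7.10 CPM, others 3.30 to 4.04). Pcdha1 in basal RPF library 5 was lowest at 2.63 CPM (others 4.32 to 4.93). Pcdhb14 in basal RNA library 2 was highest at 13.0 CPM (others 12.0 to 12.1), and Pcdhb17 in basal RNA library 3 was lowest at 14.4 CPM (others 17.8 to 18.3). Of the 9, 6 belong to the joined forms or to alpha isoforms 6 and 7, entries also named for their spread or zeros. The cause was not tested.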

How the results depend on the processing

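The number of members called in RPF (1 of 58, against 29 of 13208 genes) was 4 with no filter on low counts, against 96 of 16828 genes. It was 2 with ComBat and DESeq2, against 427 of 13208 genes. With at least 10 counts in every library it was 0, against 36 of 12256 genes. It was 0 too without the replicate block (0 of 13208 genes) and in DESeq2 with the block (28 of 13208). With joined forms summed with their partners, an alternative added after the data were seen, it was also 0. In that alternative the call is lost by its construction. With a replicate left out, the number of members called in RPF ran from 0 to 2, against 3 to 71 of all genes. The count in RNA (0) ran from 0 to 2 with a replicate left out, against 0 to 22 of all genes. That for translation efficiency (0) ran from 0 to 1 with a replicate left out, against 0 to 8 of all genes. Translation efficiency gave 1 with no filter, against 3 of 16344 genes. The number of members with a 0 in RNA (2) ran from 1 to 2. DESeq2 gave no adjusted p for Pcdha6-g in RPF. The correlations of same-numbered libraries were positive in every pair. The RNA change of Pcdhac2, near 0, was -0.00028 with DESeq2's size factors, -0.0067 with no filter, -0.0063 with at least 10 counts, -0.0055 without the block, -0.00031 in DESeq2 and -0.0061 with ComBat, and ran from -0.035 to 0.033 with a replicate left out. Without the block the RNA change of Pcdhgc5 was -0.0083, and with a replicate left out that of Pcdhgc4 ran from -0.063 to 0.036. Cluster sums moved by less than 1 SD under every alternative run, and 99 of 113 summary values were the same. The sum of each cluster's isoforms before the fit gives no count of calls and is given as values only. Pcdhb1 and Pcdha8 had at most 17 counts in any library, too few for a test. The cause of the other changes was not tested.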
